A study of Mus musculus with 4 samples.

Results

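Heat shock protein genes were followed site by site in maps of N6-methyladenosine (m6A) from mouse retinal organoids. The 10 genes were chosen by name, with earlier results of these data known. From the HSP70 family they were Hspa8, Hspa5, Hspa1a and Hspa1b, from the HSP110 family Hsph1, and from the HSP90 family Hsp90aa1 and Hsp90ab1. The others were the J-domain genes Dnaja1 and Dnajb1 and the chaperonin gene Hspd1. Of the 1076788 positions listed in at least 1 library, 804 carried the name of one of these genes. They belonged to 9 of the 10 genes, among 20001 genes with any listed position. Hspa1a had none.

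The organoids came from a reporter line, Rx:GFP, in which an FKBP12F36V-HA tag had been added to the C-terminus of endogenous METTL3, the catalytic subunit of the nuclear m6A methyltransferase. The tag lets the small molecule dTAG13 send METTL3 to the proteasome. The 2 untreated (0 h) and the 2 treated libraries (125 nM dTAG13 for 8 h) were all made from polyadenylated RNA of day 6 cultures that carried the tag, so no group had an untagged METTL3. The labels give the same batch for all 4 libraries and do not say whether replicates came from separate cultures, so every p-value measures the spread between these libraries only. Each library was read by GLORI, in which glyoxal and nitrite convert unmethylated A to a base read as G. A site's level is thus its A reads as a percentage of all reads with A or G there.

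Heat shock proteins are molecular chaperones. HSP70 proteins hold unfolded chains with the help of J-domain partners, HSP110 exchanges their nucleotide, HSP90 receives client proteins from them, and HSP60 folds proteins inside mitochondria. HSF1 turns on the stress-inducible members when unfolded protein builds up, whereas Hspa8 and Hsp90ab1 are made in nearly all cells. Methylation of adenosine in the mRNA of inducible chaperones has been studied as a control of their translation after stress.

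The 4 libraries listed 335607 and 350462 sites when untreated and 220034 and 263069 after dTAG13. The median listed site had 75 to 91 reads, and sites in the heat shock protein genes had 15 to 10710. Positions are printed as the tables list them: the submitters' notes name mm10, but those of 8 of the 9 genes fell outside the RefSeq GRCm38.p6 interval of the gene, so the build is uncertain. No position was listed below a level of 10%, below 15 reads or below 5 A reads, so an unlisted site has no known level. Eye field genes Rax, Pax6, Six3, Six6 and Lhx2 were listed in all 4 libraries, and so were the pluripotency genes Pou5f1, Nanog and Zfp42. Of the mesoderm and endoderm genes, Sox17 was listed in 4 libraries, Gata4 in 2, Foxa2 in 1 and T in none. In such bulk RNA, fewer cells of a type and less RNA per cell cannot be told apart.

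The number of listed sites in the heat shock protein genes differed by less after dTAG13 than between the treated replicates, while the total over all genes was lower in both treated libraries. They had 235 and 228 sites untreated and 219 and 249 treated, so the groups overlapped. The means were 231.5 ± 4.95 and 234.0 ± 21.21 (SD, n = 2 each), a ratio of 1.011 (exact permutation test, two-sided, p = 1.0). Over all genes the numbers were 260741 and 272174 against 178739 and 201935, a ratio of 0.7143 (exact permutation p = 0.333, the smallest that 2 against 2 libraries allow).

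Gene by gene, 4 of the 8 heat shock protein genes with at least 20 listed sites had a dTAG13 total at or above the untreated total, against 18.4% of 10258 genes. The median ratio was 1.004 for the 8 genes and 0.7 for all genes. Well-covered genes had higher ratios in general: the 490 genes with a mean coverage of 500 to 1000 had 1.047 and the 1095 genes at 150 to 200 had 0.7397. Of the 8 heat shock protein genes, 3 lay at 150 to 200, 1 at 200 to 500, 2 at 500 to 1000 and 2 above, and the part of coverage in their ratio was not tested.

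**Figure D1:**
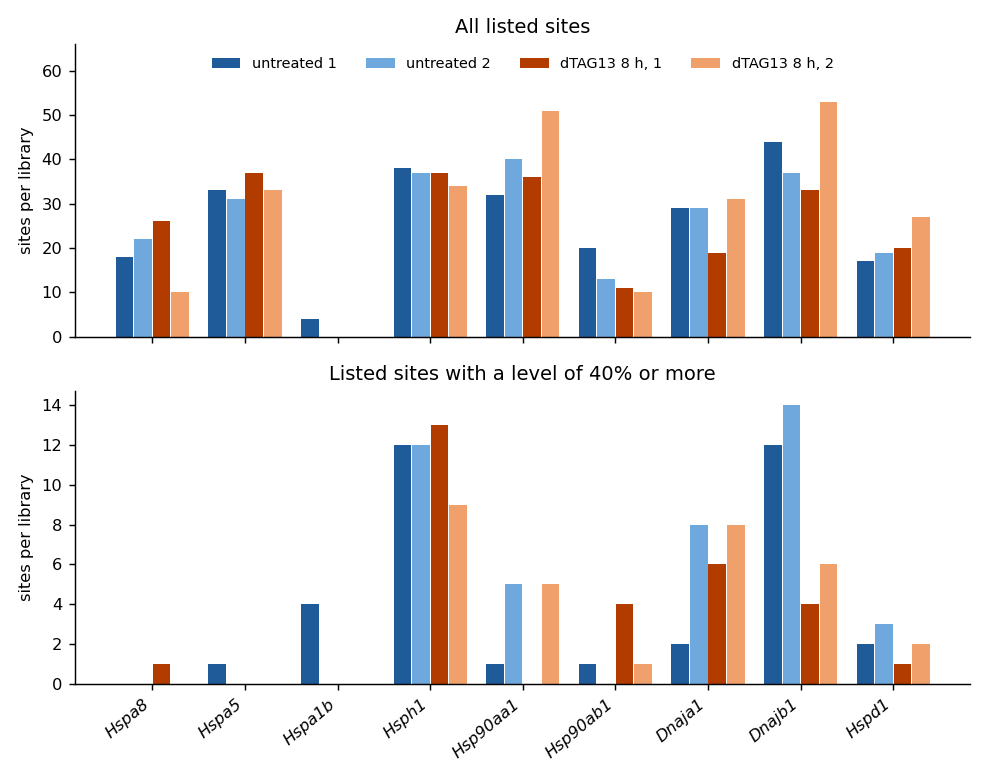
Number of listed sites (vertical axis) of each heat shock protein gene in each of the 4 libraries, all sites and those at a level of 40% or more. Dnajb1 had 44 and 37 sites untreated and 33 and 53 after dTAG13, but 12 and 14 against 4 and 6 at 40% or more.

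Most listed sites in the heat shock protein genes were at low levels. The middle site was at 17.23% and 16.84% before treatment and at 17.07% and 17.57% after it, against 26.99% to 29.35% for all sites inside genes. From 57.5% to 60.2% of their sites were under 20%, against 32.9% to 35.8% of all sites inside genes. Their median site had 202 to 249.5 reads, against 75 to 91 for all listed sites. Better-covered genes had a smaller share of high levels in general. In untreated replicate 1, 8711 of 34018 sites reached 40% at a mean gene coverage of 150 to 200. At 500 to 1000 it was 954 of 9871. The part of coverage in the low levels was not tested. At 40% or more the heat shock protein genes had 35 and 42 sites untreated and 29 and 31 after dTAG13. The groups did not overlap there, and the ratio was 0.7792, against 0.7716 for all genes (exact permutation p = 0.333). Dnajb1 had 12 and 14 of these sites untreated and 4 and 6 after dTAG13. With Dnajb1 left out, the groups overlapped. All genes at a mean coverage of 150 to 200 had a ratio of 0.916 at 40% or more. It was 1.025 at 200 to 500, 1.179 at 500 to 1000 and 1.039 above 1000. Under 40%, the heat shock protein genes had 200 and 186 sites against 190 and 218, a ratio of 1.057, where all genes had 0.6825. The part of coverage in these ratios was not tested.

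Among the HSP70 genes, Hspa8, the constitutive cytosolic chaperone, had the highest coverage, and its levels were among the lowest. Its 57 sites lay at chr9:40712636-40716496 on the plus strand, with 18 and 22 listed untreated and 26 and 10 after dTAG13. The treated libraries thus held both the highest and the lowest number. Its median level was 12.11% and 12.79% untreated and 12.26% and 13.35% treated, and 1 site in 1 treated library was the sole one at 40% or more.

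Of the 3 sites of Hspa8 listed in 3 libraries, chr9:40714738 had 4063 reads at 10.83% in untreated replicate 1, 2263 at 14.27% in dTAG13 replicate 1 and 3873 at 15.41% in dTAG13 replicate 2. Both treated values were above the sole untreated one, and the untreated group has no spread there. Hspa8 chr9:40713384 was at 12.01%, 10.83% and, in dTAG13 replicate 1, 12.12%. Hspa8 chr9:40716443 was at 10.52% in untreated replicate 2, 10.68% and 10.86%. The levels at chr9:40713384 and chr9:40716443 all sat just above the listing limit. Among its sites listed in the untreated pair only, chr9:40714649 had 9573 and 10710 reads at 20.24% and 14.05%. Its neighbour chr9:40714580 had 5869 and 6417 reads at 20.26% and 25.31%. Both were chosen after their values were seen.

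Hspa5, the HSP70 of the endoplasmic reticulum known as BiP, had 119 sites at chr2:34662157-34666538 on the plus strand. The libraries listed 33 and 31 untreated and 37 and 33 after dTAG13, so the groups met at 33. A single site reached 40%, in untreated replicate 1. Site chr2:34662448 was at 11.97% of 493 reads in untreated replicate 2, 11.77% of 739 in dTAG13 replicate 1 and 15.32% of 966 in dTAG13 replicate 2. Site chr2:34665819 was at 25.93% of 81 reads, 18.92% of 74 and, in dTAG13 replicate 1, 11.46% of 96. The treated value was the lowest of the 3, and its Wilson interval of 6.52% to 19.36% overlapped both untreated ones. Hspa5 also held 7 of the 18 heat shock protein sites listed in both treated and in neither untreated library, at 10.06% to 29.82%.

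The stress-inducible pair Hspa1a and Hspa1b are near-identical copies, so reads of one may have been given to the other or dropped. Hspa1b was listed in untreated replicate 1 only, with a gene coverage of 79.65. Its 4 sites on the minus strand of chromosome 17 were at 73.63% of 91 reads (chr17:35175690), 93.1% of 87 (chr17:35175800), 91.74% of 109 (chr17:35175805) and 100% of 17 (chr17:35176079). All 4 were high, and 3 lay above 90%. In the remaining 3 libraries neither gene had a listed site or a coverage value, so no comparison with dTAG13 could be made.

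Hsph1, the HSP110 that recharges HSP70 with ATP, had some of the highest levels of the set. Its 131 sites lay at chr5:149540334-149559982 on the minus strand, with 38 and 37 listed untreated and 37 and 34 treated. At 40% or more it had 12 and 12 against 13 and 9, a ratio of 0.9167, so these groups overlapped. Its median level was 27.73% and 23.49% untreated and 24.18% and 27.23% after dTAG13.

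The best-read high-level site of Hsph1 was chr5:149540903, which was listed in both untreated libraries and in neither treated one. It was at 46.3% of 622 reads (Wilson 95% interval 42.42% to 50.23%) in untreated replicate 1 and at 72.31% of 715 (68.92% to 75.46%) in replicate 2. The replicates differed by 26.01 points, and their intervals did not overlap. The nearest positions listed after dTAG13 were 5 bases away with 324 reads at 13.27% in replicate 1 and 35 bases away with 791 reads at 15.8% in replicate 2, so the stretch was read in both. Hsph1 chr5:149540976 varied as widely: it was at 11.99% of 417 reads and 51.64% of 213 untreated and at 21.55% of 116 in dTAG13 replicate 1.

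The HSP90 genes also had low levels, with medians of 12.39% to 16.19% over both genes and all 4 libraries. Hsp90aa1, the stress-inducible cytosolic HSP90, had 135 sites at chr12:110657473-110662743 on the minus strand. It had 32 and 40 listed sites untreated and 36 and 51 treated, and 1 and 5 against 0 and 5 at 40% or more. Both ranges overlapped.

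Hsp90aa1 held the sole site of the 804 that all 4 libraries listed, chr12:110659291. It was at 14.82% of 1538 reads and 13.12% of 1280 untreated and at 14.65% of 778 and 11.63% of 1032 after dTAG13. The treated values lay 1 inside and 1 below the untreated range. The means were 13.97% ± 1.20 and 13.14% ± 2.14 (SD, n = 2 each), a difference of -0.834 points, with an adjusted p of 0.9218 (quasi-binomial test across 2321 sites). Among those 2321 sites 2.28% passed, and none of the heat shock protein genes did. The gene's level over its tested sites, this one, did not pass either, against 4.53% of 1016 genes. Hsp90aa1 chr12:110661570 was at 17.87% of 884 reads, 21.28% of 1452 and, in dTAG13 replicate 2, 15.47% of 808.

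A site listed after dTAG13 only also lay in Hsp90aa1, chr12:110659152. It was at 30.67% of 75 reads and 71.43% of 56, with intervals that did not overlap (21.39% to 41.83% and 58.52% to 81.58%). In untreated replicate 1 a position 23 bases away had 22 reads at 40.91%, and in replicate 2 one 41 bases away had 394 reads at 11.68%.

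Hsp90ab1, the constitutive HSP90, had 49 sites at chr17:45878710-45882812 on the minus strand. It was the one gene of the set with fewer listed sites in both treated libraries, 20 and 13 against 11 and 10, where 50.2% of genes had this order. Site chr17:45882461 was at 15.52% of 2939 reads, 14.36% of 3043 and, in dTAG13 replicate 2, 14.55% of 2310, so the treated level fell between the untreated ones. Its deepest untreated-only site, chr17:45880619, was at 20.43% of 7184 and 21.82% of 9359 reads, and was chosen after its values were seen.

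The J-domain genes bring substrates to HSP70. Dnajb1, the main stress-inducible one, had 135 sites at chr8:84334971-84338836 on the plus strand. Its listed sites overlapped between groups, with 44 and 37 untreated and 33 and 53 after dTAG13. Its high-level sites did not: at 40% or more there were 12 and 14 untreated and 4 and 6 treated, a ratio of 0.3846 (exact permutation p = 0.333). Both treated libraries were lower in 33.8% of the 6505 genes with at least 20 such sites and higher in 6.36%, and 6.15% had a ratio this low or lower. Dnajb1 was singled out after its values were seen.

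The lower number of high-level Dnajb1 sites appeared at other limits too. At 30% or more the numbers were 18 and 15 against 8 and 8, at 60% or more 8 and 9 against 3 and 3, and at 90% or more 6 and 4 against 1 and 1. At 20% or more they were 21 and 22 against 13 and 24, which overlapped. With at least 50 reads they were 6 and 8 against 2 and 4 at 40% or more and 8 and 9 against 6 and 5 at 30% or more. At 20% or more they were then 11 and 15 against 11 and 20, which overlapped, with a ratio of 1.192. The gene's coverage was 236.3 and 322 untreated and 219.6 and 382.2 treated. The library with the highest coverage had 6 sites at 40% or more and that with the lowest had 4. The part of coverage in these numbers was not tested.

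**Figure D2:**
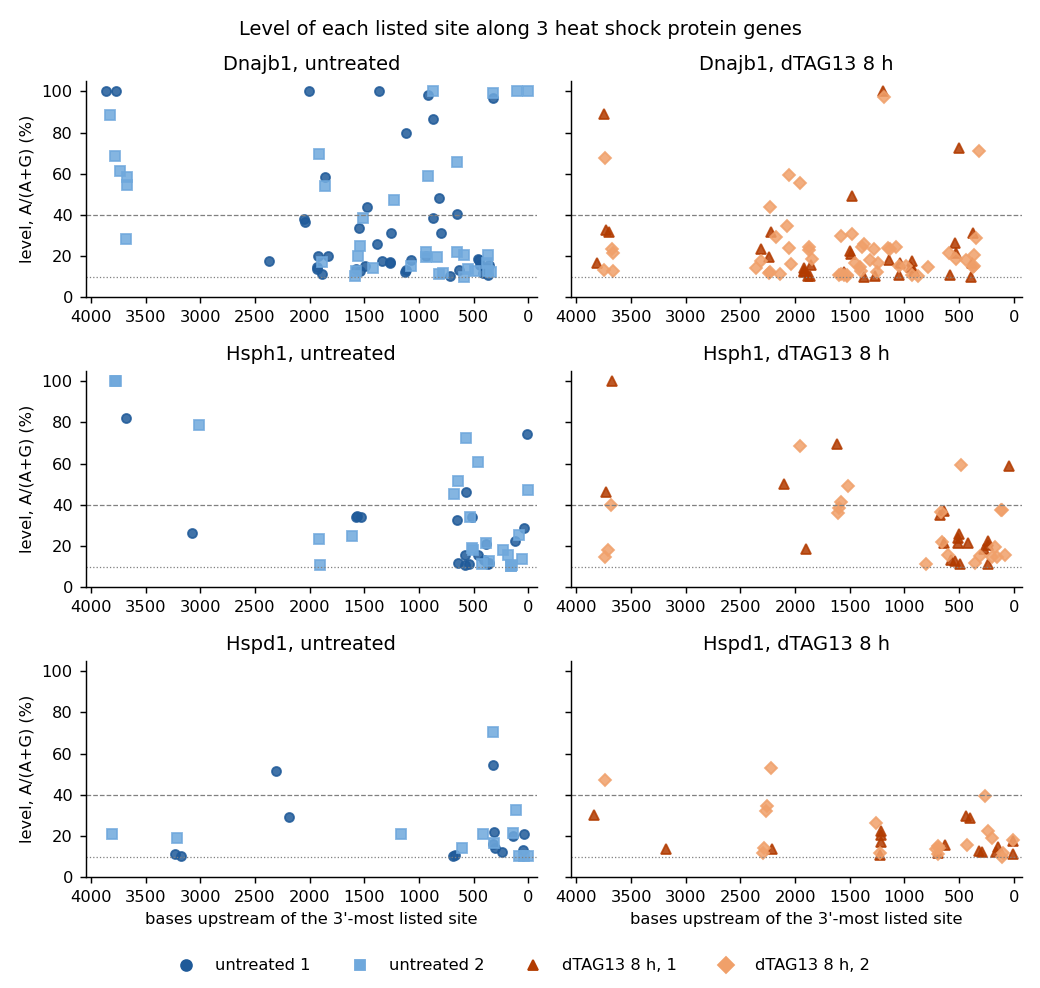
Level of listed sites (vertical axis, %) against their distance in bases from the 3′-most listed site of Dnajb1, Hsph1 and Hspd1. Untreated libraries are left and dTAG13 libraries right. The dotted line is the 10% listing limit and the dashed line 40%. Sites of Hsph1 and Hspd1 farther upstream than the axis reaches are not drawn. Dnajb1 had 12 and 14 points at or above the dashed line untreated and 4 and 6 after dTAG13.

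Dnajb1 also had 8 of the 26 heat shock protein sites that both untreated libraries and neither treated one listed. Site chr8:84337921, 915 bases upstream of the 3′-most listed site, was at 98.16% of 163 reads (94.73% to 99.37%) and 59.12% of 181 (51.84% to 66.02%). After dTAG13 the nearest listed positions were 6 bases away with 102 reads at 12.75% and 16 bases away with 841 reads at 11.06%. Reads were present there, and the site itself has no listed level.

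Dnajb1 chr8:84338181 was at 40.65% of 369 reads and 65.55% of 209 in the untreated libraries. Its nearest neighbours listed after dTAG13 lay 70 bases away with 395 reads at 10.89% and 67 bases away with 626 reads at 21.57%. Site chr8:84338516, chosen after its values were seen because replicate 1 had under 50 reads, was at 96.97% of 33 and 99.14% of 116, the closest untreated agreement of the 6 high-level sites. At lower levels, chr8:84337260 was at 13.57%, 12.94% and, in dTAG13 replicate 2, 11.46%. Dnajb1 chr8:84337905 was at 19.55% in untreated replicate 2, 17.65% of 459 reads and 11.06% of 841.

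Dnaja1, a constitutive J-domain partner of HSP70, had 100 sites at chr4:40722567-40734901 on the plus strand. It had 29 and 29 listed sites untreated and 19 and 31 treated, and 2 and 8 against 6 and 8 at 40% or more. Both measures overlapped. Site chr4:40732997 was listed in the untreated pair alone, at 94.52% of 73 reads (86.74% to 97.85%) and 53.75% of 80 (42.9% to 64.25%). The replicates differed by 40.77 points. After dTAG13, replicate 1 listed a position 70 bases away at 51.43% of 70 reads and replicate 2 one 3 bases away at 53.96% of 139.

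Hspd1 encodes HSP60, the mitochondrial chaperonin. Its 74 sites lay at chr1:55117087-55127003 on the minus strand, and the treated libraries listed more of them, 20 and 27 against 17 and 19. Both treated libraries were higher in 4.28% of genes, and the ratio of 1.306 was at or above that of 94.1% of genes (exact permutation p = 0.333). At 40% or more the numbers were 2 and 3 against 1 and 2. Its leading site, chr1:55117414, was listed in the untreated pair alone, at 54.48% of 736 reads (50.87% to 58.05%) and 70.34% of 961 (67.38% to 73.15%). In dTAG13 replicate 1 a position 11 bases away had 278 reads at 12.59%, and in replicate 2 one 61 bases away had 43 reads at 39.53%. Pseudogenes of Hspd1 were listed too, Hspd1-ps3 with 28 and 31 sites untreated and 42 and 38 treated, so reads may be split between copies.

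Few sites recurred between libraries. A single library listed 689 of the 804 sites (85.7%). A further 104 (12.9%) appeared in 2 libraries, 10 (1.24%) in 3 and the Hsp90aa1 site in 4. Over all sites inside genes 91.4% were in 1 library and 7.77% in 2. The untreated pair shared 33 sites of the heat shock protein genes, the dTAG13 pair 23 and the 4 mixed pairs 16 to 27. Over all sites inside genes the untreated pair shared 25086, the dTAG13 pair 11156 and the mixed pairs 12953 to 14168. At a mean level of 40% or more, the untreated pair of the heat shock protein genes shared 6, the dTAG13 pair 1 and the mixed pairs 0 to 3. Over all sites inside genes the untreated pair shared 9150 at that level, the dTAG13 pair 2306 and the mixed pairs 3075 to 3493.

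**Figure D3:**
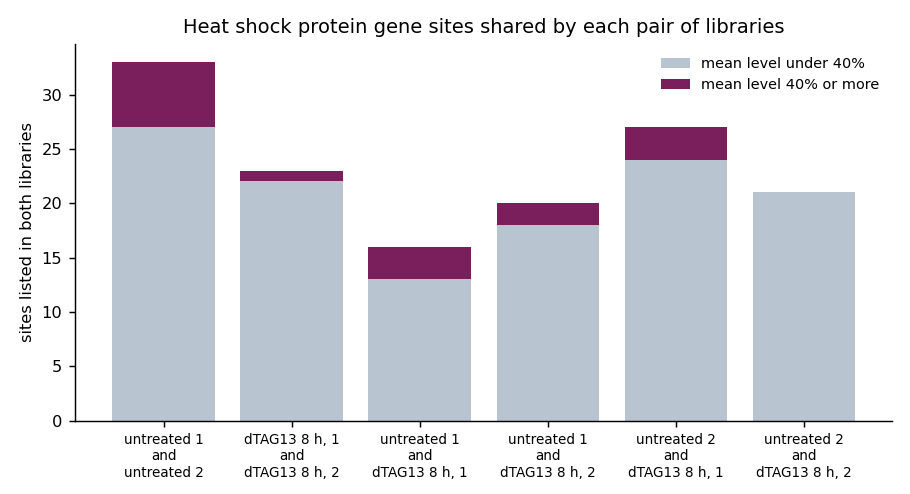
Number of heat shock protein gene sites listed in both libraries of each pair (bars), split at a mean level of 40%. The untreated pair shared 33 sites, of which 6 were at 40% or more, and the dTAG13 pair shared 23, of which 1 was.

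Recovery was read from each library in turn. Untreated replicate 1 had 206 sites of 50 reads or more, of which replicate 2 listed 15.05% (Wilson 95% interval 10.81% to 20.57%) and the dTAG13 libraries 6.311% (3.725% to 10.5%) and 8.738% (5.599% to 13.39%). Of the 193 in untreated replicate 2, replicate 1 listed 17.1% (12.44% to 23.04%) and the dTAG13 libraries 12.44% and 9.326%. The treated libraries recovered 0.5 and 0.6364 of what the other untreated library did, and 0.5595 and 0.5554 over all genes. From the treated libraries no such order was seen at 50 reads or more. Of the 186 in dTAG13 replicate 1, untreated replicates 1 and 2 listed 6.989% and 12.9% and dTAG13 replicate 2 listed 11.83%. Of the 224 in dTAG13 replicate 2, they listed 8.482% and 9.375% and dTAG13 replicate 1 listed 9.375%. At 200 reads or more the other treated library listed the most, with overlapping intervals. Of 110 sites in dTAG13 replicate 1 the untreated libraries listed 6.364% and 10.91% and dTAG13 replicate 2 listed 14.55%. Of 147 in dTAG13 replicate 2 they listed 11.56% and 9.524% and dTAG13 replicate 1 listed 12.93%. At 40% or more, untreated replicate 2 listed 5 of the 17 sites of replicate 1 and the treated libraries 0 and 1. A count of 0 of 17 allows a share of up to 17.6%. Of the 23 of replicate 2, replicate 1 listed 7 and the treated libraries 3 and 0. Over all genes the other untreated library listed 14.14% and 13.81% of such sites, and the treated libraries 3.885% to 4.427%. All intervals cover counting error only.

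The 26 sites listed in the untreated pair alone included 6 at 40% or more, whose untreated replicates differed by 2.168 to 40.77 points with a median of 25.45. For the 20 below 40% the median difference was 3.474 points. The 6 lay 320 to 1904 bases upstream of the 3′-most listed site of their gene, with a median of 612. The median was 848.5 for the 20 sites of the untreated pair under 40%, 2128 for the 18 sites of the dTAG13 pair and 1907 for the 689 sites in 1 library. These distances are measured from listed sites, since the annotation used here is not in the frame of the listed positions. Of the 26 sites, 5 (19.2%) had at least 50 reads in both untreated libraries and a mean level of 40% or more. Over all genes this share was 20.2% of 20066 sites of the untreated pair alone. For the 18 sites of the dTAG13 pair it was 5.56%, against 9.46% of 7672 over all genes.

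None of the 8 heat shock protein genes listed in all 4 libraries passed the test for gene coverage, the value the authors deposited for the depth of each gene. Hspa8 had 2906 and 3250 untreated and 1829 and 2847 after dTAG13, and Hsp90ab1 had 2787 and 3166 against 1724 and 2573. In each gene both treated values lay below the untreated ones. After each library was centred on its median gene, the log2 changes were -0.35 and -0.41 (standard errors 0.21 and 0.20, adjusted p = 0.498 and 0.436, limma). Hspa5 had 1024 and 1074 against 728.7 and 1081, and Hsp90aa1 had 605.1 and 623.9 against 415.6 and 561.1.

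Dnajb1 had 236.3 and 322 against 219.6 and 382.2, and Dnaja1 had 146.4 and 215.4 against 151.6 and 246.6. In both genes dTAG13 replicate 2 was the highest library. Hspd1 had 190.7 and 206.5 against 146.5 and 185.1, and Hsph1 had 137.6 and 215.1 against 118.9 and 166.5. After centring, both treated libraries lay below both untreated ones for 5 of the 8 (Hsp90aa1, Hsp90ab1, Hspa5, Hspa8 and Hspd1), against 29.2% of genes. No gene of the 12520 tested passed (0% called by limma, with 1595 or 12.7% at an unadjusted p under 0.05, none of them a heat shock protein gene, and 8.34% below the untreated level at that p). The median change was -0.1975 for the 8 genes and -0.06698 for all genes. With quantile normalisation it was 0.04159 and 3 of the 8 were below 0, so the direction depended on the scaling.

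**Figure D4:**
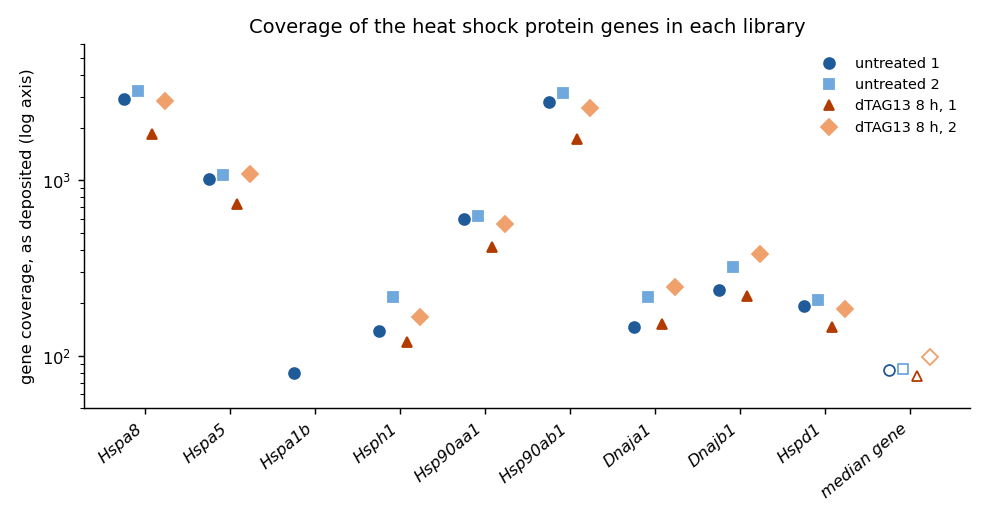
Deposited gene coverage (vertical axis, log scale) of each heat shock protein gene in each library, with the median gene at the right as open symbols. Hspa8 and Hsp90ab1 had the highest coverage, 1724 to 3250, and Hspa1b had a single value of 79.65.

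The share of unconverted A over a whole gene, 1 minus the deposited conversion rate, also differed in no gene at the threshold (0% called of 12520 by limma, 1547 or 12.4% at an unadjusted p under 0.05). In Dnajb1 it was 4.969% and 5.144% untreated and 2.645% and 3.371% after dTAG13, a difference of -2.049 points. In Hspd1 it was 3.915% and 3.839% against 2.341% and 2.491%. The groups did not overlap in either, and these were the 2 of 8 genes with an unadjusted p under 0.05, 0.0393 and 0.0429, with adjusted values of 0.3927 and 0.3969 (limma).

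Both treated libraries were lower in 6 of the 8 genes, against 40.9% of all genes. The median gene was itself lower, at 4.152% and 3.78% untreated and 3.135% and 3.256% treated. After centring on it, the change in Dnajb1 went from -0.76 to -0.45 on the log2 scale, with an unadjusted p of 0.1439 (limma). Hspa8 had 4.958% and 4.193% against 4.224% and 5.012%, which overlapped. Dnaja1 had 4.291% and 2.389% against 2.661% and 3.617%, with both extremes in the untreated group.

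**Figure D5:**
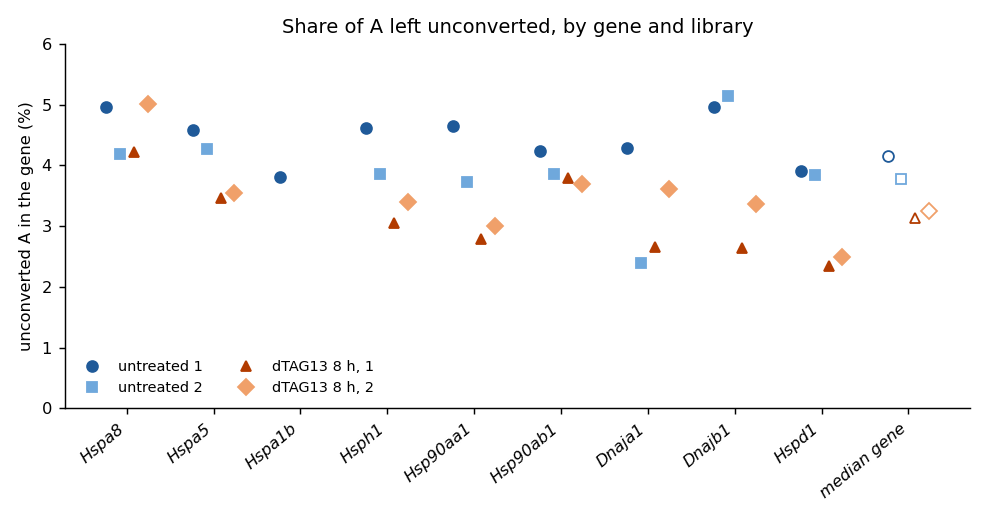
Share of unconverted A over each gene (vertical axis, %) in each library, with the median gene at the right. Dnajb1 was at 4.969% and 5.144% untreated and 2.645% and 3.371% after dTAG13, and the median gene at 4.152%, 3.78%, 3.135% and 3.256%.

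The other genes of the chaperone system were taken as lists. None of their members passed in coverage, and none of their 12 tested sites passed in level. The ratio of listed sites was 0.7733 for 9 other HSP70 and HSP110 genes, 0.8725 for 2 other HSP90 genes, 0.7061 for 23 other J-domain genes, 0.7813 for 21 co-chaperones, 0.5584 for 9 small heat shock proteins, 0.8489 for 4 HSF genes and 1.371 for 9 other chaperonin genes. For the genes found in all 4 libraries, the median coverage change lay between -0.07468 and -0.4046 on the log2 scale in the other lists and was -0.5923 for the chaperonin genes. Among the tested sites, Hsf1 chr15:76385074, in the gene of the main heat shock transcription factor, was at 19.43% untreated and 43.98% after dTAG13 (adjusted p = 0.1136, quasi-binomial). Cct4 chr11:22940848, in a subunit gene of the cytosolic chaperonin, was at 11.22% and 30.87% (adjusted p = 0.07547). A site of the endoplasmic reticulum HSP90 gene Hsp90b1 was at 19.05% and 24.41% (adjusted p = 0.1152). The largest difference went the other way, at a site of the J-domain gene Dnajc14, from 98.96% to 74.07% (adjusted p = 0.5467, quasi-binomial). These values are group means, and the sites named here were picked from the 12 after their values were seen. Of the 53 sites that passed over the whole series, 51 were lower after dTAG13 and 2 were higher.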

How the data were processed

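Tables of sites from 4 GLORI libraries of polyadenylated RNA were used, 1 per sample. The authors deposited, per listed site, counts of A reads and of A and G reads, the level as a fraction, a raw and an adjusted p-value, and for each gene a coverage signal and a conversion rate as a fraction, per the file headers. The aligner and the caller are not given in the sources used here. The submitters' processing notes name mm10, but only 100 of the 804 positions, all in Dnaja1, fell inside the RefSeq GRCm38.p6 interval of their gene, and the tables hold 2 contigs named as in a later assembly. Positions are therefore printed as listed, and exon, intron or UTR was not assigned. The genotype label of the samples names Mettl3 in 1 sample and higher numbers in the others, whereas the series text names METTL3 alone, which was followed. Of the marker genes looked up, 1 is not reported here. Every deposited column was assigned to a sample (0 left out).

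Sites were matched by position, strand and gene name. Sites with at least 20 reads in all 4 libraries were tested on their A and G counts with a quasi-binomial model with a spread shared across sites (limma 3.58.1 in R 4.3.3). Coverage and unconverted share (floor 0.001) were tested as log2 values with limma, coverage after centring on the median gene. p-values were adjusted over the whole table by Benjamini-Hochberg, with a threshold of 0.05. Other work used Python 3.11.15, pandas 2.3.3, numpy 2.4.6, scipy 1.17.1 and the data.table package, version 1.17.8. The tests were checked on simulated data. The untreated and dTAG13 samples were compared 2 against 2.

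The sites named are those in 3 or 4 libraries, and those in both libraries of one group and neither of the other with at least 50 reads in each and a mean level of 40% or more. Genes and lists were chosen with earlier results of these data known. Alternatives varied the minimum reads, the test, the scaling, the pseudocount, the replicate block and the libraries kept.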

Additional observations from a re-analysis of the deposited data

How the results depend on the processing

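Of 46 alternative values for whole comparisons, 2 moved by more than the replicate spread (for counts of calls, by more than 1.5 times), both from keeping only sites at 40% or more: the ratio of listed sites in the heat shock protein genes was 0.7792 in place of 1.011 (0.946 to 1.076 when each library was left out in turn, so to either side of 1), and the recovery ratio was 0.1572 in place of 0.5682. Both recovery ratios take the untreated libraries as reference. No heat shock protein gene passed in any setting. Most of the 46 values were these counts of 0 calls, and few of them could have differed. The site test held 1 to 4 sites of these genes, and apart from coverage without centring no gene passed in coverage or unconverted share. Over the whole table, 53 sites passed the quasi-binomial test, 531 with replicates summed (Fisher's exact test), 41 with limma on log2 odds, and 0 with the replicate block or with any library left out. The labels do not say whether same-numbered libraries belong together. Such libraries deviated together with a correlation of 0.00227 in coverage and 0.0193 in level, which cannot decide it. No heat shock protein gene was called with or without the block, so it had no call on them to change. Coverage without centring gave 15 calls, none in these genes, against 0. Its median over all genes moved from -0.06698 to -0.1488.

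Of 153 alternative values for single genes or sites, none of them called, 15 changed sign. In coverage these were, on the log2 scale, Dnaja1 without untreated replicate 1 (-0.04835; range over the 4 left-out libraries to 0.4554), Dnajb1 without untreated replicate 1 (-0.04482) or dTAG13 replicate 2 (-0.04622, range to 0.3482), Hsph1 without untreated replicate 2 (0.08665, range from -0.5048), and with quantile normalisation Hsp90aa1 (0.08221), Hspa5 (0.2357) and Hspa8 (0.0009694). In unconverted share they were Dnaja1 without untreated replicate 1 (0.377, range from -0.4679), without dTAG13 replicate 1 (0.1759) or centred on the median gene (0.2649), Hsp90ab1 centred (0.2006), and Hspa8 without untreated replicate 2 (-0.1078) or dTAG13 replicate 2 (-0.1103, range to 0.1365). The Hsp90aa1 site in all 4 libraries gave 0.01543 points without untreated replicate 1 and 0.6782 without dTAG13 replicate 2, in a range from -2.347. The cause was not tested. The Dnajb1 ratio at 40% or more stayed between 0.3077 and 0.4615 when each library was left out, and between 0.3529 and 0.4848 at limits of 30%, 50% and 60%, settings chosen after seeing the data. It was 0.8605 at 20% and 0.2 at 90%. With at least 50 reads it was 0.4286 at 40%, 0.6471 at 30% and 1.192 at 20%. With 2 libraries a group the exact test cannot go below 0.333, and sites are listed only at 10% or more, so a level just under the limit and no methylation look alike.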

Other observations

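The other chaperonin genes, 9 in number and including the subunit genes of the cytosolic complex that folds actin and tubulin, had more listed sites and lower coverage values after dTAG13; the difference from the other lists was not tested. Their listed sites numbered 226 and 202 untreated and 315 and 272 after dTAG13, a ratio of 1.371, with no overlap between groups. All genes at a mean coverage of 500 to 1000, where most of these lay, had a ratio of 1.047, and those above 1000 had 1.091. The part of coverage in the chaperonin ratio was not tested. After each library was centred on its median gene, coverage was lower after dTAG13 in value in 9 of 9. Both treated libraries then lay below both untreated ones, against 29.2% of genes, with a median change of -0.59 on the log2 scale. As deposited, Hspe1 overlapped, at 901.5 and 807 untreated and 643.7 and 843.9 treated. None passed (limma, adjusted), and 6 had an unadjusted p under 0.05, against 12.7% of genes. So did 9 of the 21 co-chaperone genes, 7 of them lower after dTAG13, and 0 or 1 gene in each remaining list. After centring, both treated libraries were lower in 11 of the 21 co-chaperone genes and higher in 5. Among the chaperonin genes, Cct3 had a coverage of 510.3 and 641.3 untreated and 234.9 and 361 treated (log2 change -0.89, standard error 0.22, adjusted p = 0.3629, limma). With quantile normalisation 8 of 9 were below 0, with a median of -0.2451. Chaperonin genes were singled out after their values were seen.

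Many sites had another listed site close by. In the heat shock protein genes, 34.5% to 43.0% of sites lay within 10 bases of another site of the same library, against 28.9% to 32.1% over all genes. The part of site density in this difference was not tested. The gene spans also held positions listed under no gene name, 40 of them on the plus strand across Dnaja1, and inside Hspa8 1 position of the small nucleolar RNA gene Snord14d and 4 of Snord14e. The pseudogene Dnaja1-ps had 24 and 23 sites untreated and 16 and 25 after dTAG13.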
